A study of Mus musculus with 9 samples.

Results

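The 7 glucocorticoid-responsive genes examined here were measured in spleen RNA of lupus-prone and control mice. They are Nr3c1, Fkbp5, Tsc22d3, Sgk1, Txnip, Ddit4 and Klf9. They were chosen by name as known parts or targets of this hormone pathway, with earlier results of these data known. All 7 were found among the 21965 genes counted. The libraries were made from spleens of 16-week-old mice in 3 groups of 3 libraries each. BWF1 mice are the F1 cross of the NZB and NZW strains, whose females develop a lupus-like disease with age. The groups were BWF1 females, which the series title calls lupus-prone, together with BALB/c females and BWF1 males, both named as not prone to the disease. No treatment or transgene is given for any group, and no hormone level, disease score or time of day of sampling was used here. The title and design text speak of whole splenocytes, while the sample labels name macrophages sorted by CD11b and F4/80 after collagenase digestion.

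Glucocorticoids, corticosterone in mice, enter cells and bind the glucocorticoid receptor, which waits in the cytoplasm in a complex of heat shock chaperones. The bound receptor moves to the nucleus, binds short palindromic DNA elements and raises or lowers the transcription of nearby genes. In the spleen the hormone is known for restraining inflammatory cytokines and for killing or silencing lymphocytes. BWF1 females and males differ in sex within a strain, BWF1 and BALB/c females differ in strain within a sex, and BWF1 males and BALB/c females differ in both.

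The depth was low. Gene counts ran from 458608 to 4305003 per library, and the single gene Lars2 held 42.3% to 76.6% of them. Levels are given as CPM, counts scaled to a common library total, after scaling by TMM, a factor per library estimated from the bulk of genes, and 1 count equalled 0.208 to 2.205 CPM. The library BWF1 male 1 stood apart with the highest Lars2 share and the lowest factor, 0.530, and BWF1 male 3 held the most counts. File names carried the tag RL in BWF1 females 1 and 3 and BWF1 males 1 and 3, and ORIG in BWF1 female 2, BWF1 male 2 and all 3 BALB/c libraries; its meaning is not given. B cell markers such as Cd79a and Ms4a1 were present in every library, with a summed level of 2164 to 3247 CPM, next to 227 to 726 CPM for 12 markers of macrophages and of the sort gate. None of the B cell, T cell, natural killer cell or macrophage markers listed was at 0 in any group. In such bulk RNA, fewer cells of a type and less RNA per cell cannot be told apart.

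Sgk1, Txnip and Tsc22d3 had receptor element letters within the 250 bases before an annotated transcript start. For Tsc22d3 these were a half-site in a window not shown here. The elements searched, on both strands, were the half-site AGAACA, the relaxed palindrome GNACANNNTGTNC and the strict palindrome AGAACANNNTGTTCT. The strict form contains the relaxed one and the half-site. Shown are the 1 of 6 Sgk1 windows with the strict palindrome (chr10:21993640-21993889, plus strand), the only Txnip window (chr3:96557707-96557956, plus strand) and the most downstream of 3 Tsc22d3 windows (chrX:140542669-140542918, minus strand). They read 5′ to 3′ towards the start site, from RefSeq on GRCm38.p6, and capitals mark letters of a half-site or of the relaxed palindrome.
Sgk1: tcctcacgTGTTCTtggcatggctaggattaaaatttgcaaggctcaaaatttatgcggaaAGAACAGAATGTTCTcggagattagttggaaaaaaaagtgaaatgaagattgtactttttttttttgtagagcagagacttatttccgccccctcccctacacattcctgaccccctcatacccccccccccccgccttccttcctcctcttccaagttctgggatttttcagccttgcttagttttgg
Txnip: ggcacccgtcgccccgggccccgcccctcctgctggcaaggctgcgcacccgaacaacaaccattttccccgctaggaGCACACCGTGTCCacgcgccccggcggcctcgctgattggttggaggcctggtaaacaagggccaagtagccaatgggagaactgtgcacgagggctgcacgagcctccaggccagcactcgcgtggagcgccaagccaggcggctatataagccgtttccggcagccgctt
Tsc22d3: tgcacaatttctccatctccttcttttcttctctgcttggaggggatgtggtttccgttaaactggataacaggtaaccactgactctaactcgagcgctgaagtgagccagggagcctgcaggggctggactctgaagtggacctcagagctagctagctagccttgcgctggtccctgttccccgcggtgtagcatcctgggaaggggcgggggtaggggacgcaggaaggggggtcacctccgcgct

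The strict palindrome of Sgk1, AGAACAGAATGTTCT, lay at 21993701 to 21993715 of chromosome 10, which is 951 bases before the most downstream Sgk1 start. It occurred in 3 of 32851 such windows across all genes (0.00913%). Txnip held the relaxed palindrome GCACACCGTGTCC at 172 to 160 bases before its start, a form found in 0.387% of windows, and the FOXO letters GTAAACA, whose motif TGTTTAC stood in 3.17% of windows. The half-site alone stood in 16.1% of windows, so single half-sites are common. Of the Sgk1 windows 3 of 6 held a half-site or palindrome, and of the Tsc22d3 windows the most upstream held a half-site, at 185 to 180 bases before its start. The Tsc22d3 window shown held none of the 3 receptor motifs, and the Fkbp5 and Ddit4 windows held none either. Klf9 held the FOXO letters. RefSeq windows were matched for 6 of the 7 genes, 13 windows in all, and Nr3c1 was not matched. Sgk1 had 6 windows and Tsc22d3 had 3, while Txnip, Fkbp5, Ddit4 and Klf9 had 1 each. The chances of a match were therefore unequal, and any link between these letters and the group differences was not tested. Sequence outside these windows was not searched, so a window without a match does not mean a gene without receptor elements. These matches are letters in a sequence, and receptor binding was not measured.

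The receptor gene itself was called in none of the 3 comparisons, and its targets did not share a single pattern. Tsc22d3 was lower in BWF1 females than in either control group, Sgk1 and Txnip were lower in BWF1 females relative to BALB/c, and Fkbp5 and Ddit4 were called in none of the 3 comparisons. Klf9 had too few counts to be tested. A gene was called at a Benjamini-Hochberg adjusted p under 0.05 in edgeR's quasi-likelihood test over 7719 tested genes.

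**Figure D1:**
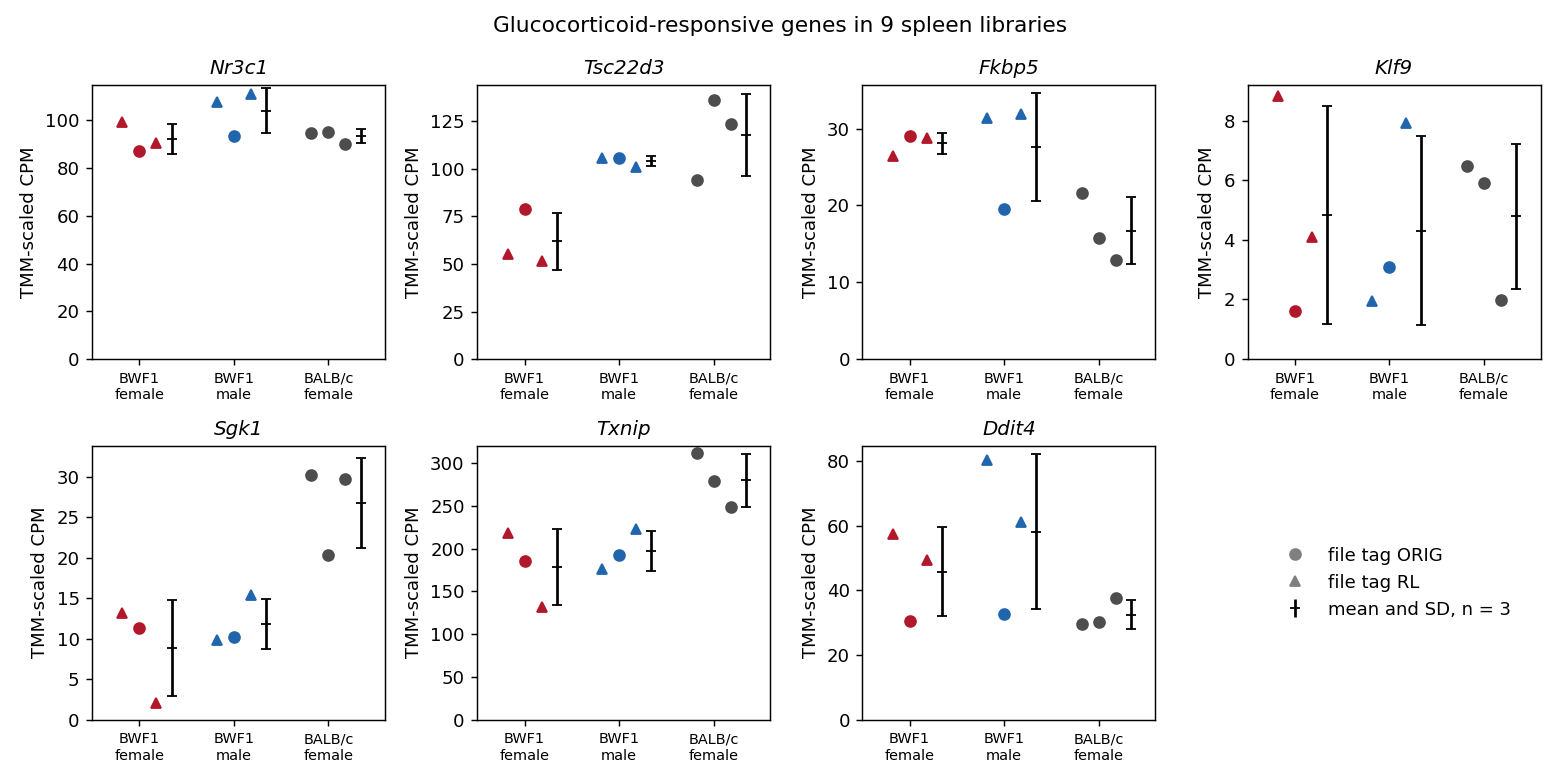
Level of each of the 7 genes in the 9 libraries, in TMM-scaled CPM, with the mean and SD (n = 3) beside each group and the file tag as the marker shape. The 3 BWF1 females lie below both other groups for Tsc22d3 (51.3 to 79.1 CPM) and below BALB/c females for Sgk1 and Txnip, while Nr3c1 spans 87.1 to 111 CPM over all libraries.

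Nr3c1 encodes the glucocorticoid receptor (ENSMUSG00000024431, mm10 chromosome 18, 39410545 to 39519421, minus strand). Its levels were 99.2, 87.1 and 90.3 CPM in BWF1 females 1 to 3, 108, 93.3 and 111 CPM in BWF1 males, and 94.9, 95.3 and 90.2 CPM in BALB/c females. The ranges of the 3 groups overlapped, and no library stood far from the rest. BWF1 females minus BWF1 males gave a log2 difference of -0.18 (SE 0.17, edgeR adjusted p = 0.643). Against BALB/c females the values were -0.02 (SE 0.16, edgeR adjusted p = 0.967) for BWF1 females and 0.16 (SE 0.16, edgeR adjusted p = 0.705) for BWF1 males. A p that misses the threshold does not show equal levels, and the standard error sets how small a difference could be seen.

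Fkbp5 encodes a co-chaperone that lowers the receptor's affinity for hormone, and as a strongly induced target it forms a negative feedback loop (ENSMUSG00000024222, chromosome 17, 28399094 to 28517527, minus strand). It stood at 26.5, 29.0 and 28.7 CPM in BWF1 females, 31.4, 19.5 and 31.9 CPM in the BWF1 males and 21.6, 15.8 and 12.9 CPM in BALB/c. All BWF1 females were above all BALB/c females, and 2 of 3 BWF1 males were too, yet neither comparison passed. The log2 difference was 0.74 (SE 0.29, edgeR adjusted p = 0.180) for the female and 0.71 (SE 0.27, edgeR adjusted p = 0.167) for the male BWF1 mice against BALB/c. Between the BWF1 sexes it was 0.02 (SE 0.28, edgeR adjusted p = 0.983), and its sign changed under 5 of the alternative analyses. Within the ORIG libraries the difference from the 3 BALB/c females was 0.79 for the 1 BWF1 female and 0.22 for the 1 BWF1 male. With the file tag as a term it was 0.53 (SE 0.34) in BWF1 females and 0.47 (SE 0.35) in BWF1 males. Fkbp5 therefore had the opposite measured direction to Sgk1 and Txnip against BALB/c females, without a call.

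Tsc22d3 encodes GILZ, a leucine zipper protein induced by glucocorticoids that restrains NF-kappaB and AP-1 activity (ENSMUSG00000031431, chromosome X, 140539528 to 140600659, minus strand). In BWF1 females 1 to 3 it was at 55.1, 79.1 and 51.3 CPM, from 25, 49 and 25 counts. BWF1 males stood at 105.9, 105.6 and 101.2 CPM and BALB/c females at 94.2, 136 and 124 CPM. Every BWF1 female was thus below every library of the other groups, and the BWF1 males and BALB/c females overlapped. The mean was 61.8 ± 15.0 CPM (SD, n = 3) in BWF1 females, 104 ± 2.64 CPM in the BWF1 males and 118 ± 21.5 CPM in BALB/c.

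Against BWF1 males, Tsc22d3 in BWF1 females fell by 0.74 on the log2 scale (SE 0.19, edgeR adjusted p = 0.0383), so males were 1.67-fold higher. This call was lost in 9 of 19 alternative analyses: with library size scaling (edgeR adjusted p = 0.869), DESeq2 (0.0586) and a fit of only the 2 groups (0.0577), and without any of 6 single libraries. Those were BWF1 females 1 (0.115) and 3 (0.139), BWF1 males 1 (0.0587), 2 (0.0972) and 3 (0.119), and BALB/c female 3 (0.0567). The log2 difference stayed between -0.97 and -0.56 in all 19. Against BALB/c females it fell by 0.92 (SE 0.19, edgeR adjusted p = 0.00431), with BALB/c females 1.90-fold higher. That call was kept in 18 of 19 alternatives, the exception being the file tag as a term in the fit (-0.75, SE 0.23, edgeR adjusted p = 0.0882). Within the ORIG libraries the 1 BWF1 female was lower than the 3 BALB/c females by a log2 difference of -0.58, and within the RL libraries 2 BWF1 females differed from 2 males by -0.96, while the 1 ORIG female differed from the 1 ORIG male by -0.42. BWF1 males and BALB/c females differed by -0.18 (SE 0.18, edgeR adjusted p = 0.697).

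Sgk1 encodes a serine/threonine kinase of the AGC family, named for its induction by serum and glucocorticoids, that controls ion channels and FOXO factors (ENSMUSG00000019970, chromosome 10, 21882184 to 21999903, plus strand). It was scarce in BWF1 females, with 6, 7 and 1 counts, or 13.2, 11.3 and 2.05 CPM. BWF1 males held 9.81, 10.3 and 15.4 CPM and BALB/c females 30.2, 20.4 and 29.7 CPM. The BALB/c libraries were above all 6 BWF1 libraries, whereas BWF1 females and males overlapped. Relative to BALB/c females, Sgk1 in BWF1 females fell by 1.57 on the log2 scale (SE 0.40, edgeR adjusted p = 0.0226), so BALB/c females were 2.97-fold higher.

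The Sgk1 difference rested on few reads, 14 over all BWF1 females against 103 over BALB/c females. It lost its call without BWF1 female 3 (log2 difference -1.12, edgeR adjusted p = 0.0967), without BALB/c females 1 (0.0945) or 3 (0.0861), with the file tag as a term (0.102), with DESeq2 (0.0956) and with limma-voom (0.0810), and stayed negative throughout. BWF1 males minus BALB/c females gave -1.08 (SE 0.34, edgeR adjusted p = 0.080), which became a call in 7 of 19 alternatives. Between BWF1 females and males the value was -0.49 (SE 0.42, edgeR adjusted p = 0.613). In a fit of only these 2 groups Sgk1 fell below the count filter. Without the filter, BWF1 females minus BALB/c females gave -1.59 (SE 0.37, edgeR adjusted p = 0.0016). The strict receptor palindrome shown above belongs to this gene.

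Txnip encodes the thioredoxin-interacting protein, which binds thioredoxin, limits glucose uptake and is raised by glucose as well as by glucocorticoids (ENSMUSG00000038393, chromosome 3, 96557957 to 96561883, plus strand). Levels were 218, 186 and 131 CPM in BWF1 females, 177, 193 and 223 CPM in the BWF1 males and 311, 279 and 249 CPM in BALB/c. As for Sgk1, each BALB/c library was above each BWF1 library and the BWF1 sexes overlapped. BWF1 females against BALB/c females gave a log2 difference of -0.65 (SE 0.17, edgeR adjusted p = 0.0282), 1.57-fold higher in BALB/c. The call was lost without BWF1 females 2 (edgeR adjusted p = 0.0665) or 3 (log2 difference -0.46, 0.132), without BALB/c females 1 (0.130) or 2 (0.0803), with library size scaling (0.187) and with the file tag as a term (0.144). BWF1 males differed from BALB/c females by -0.50 (SE 0.17, edgeR adjusted p = 0.107) and from BWF1 females by less, -0.15 for females minus males (SE 0.17, edgeR adjusted p = 0.721).

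Ddit4 encodes REDD1, a stress-induced inhibitor of the mTORC1 kinase complex (ENSMUSG00000020108, chromosome 10, 59949669 to 59951834, minus strand). It was at 57.3, 30.7 and 49.3 CPM in BWF1 females, 80.4, 32.8 and 61.0 CPM in the BWF1 males and 29.5, 30.2 and 37.7 CPM in BALB/c. The low BWF1 libraries were those with the tag ORIG, as are all BALB/c libraries. By tag the levels did not overlap, at 29.5 to 37.7 CPM in 5 ORIG and 49.3 to 80.4 CPM in 4 RL libraries. In a fit with the tag as a term, RL minus ORIG was 0.95 (SE 0.24, edgeR unadjusted p = 0.000548, edgeR adjusted p = 0.500). The tag term called 0 of 7719 genes, with 447 of them at an unadjusted p under 0.05. Other tools were not run on this term. BWF1 males minus BALB/c females was 0.82 (SE 0.26, edgeR adjusted p = 0.0852), and became a call in 5 of 19 alternatives: with Lars2 removed (edgeR adjusted p = 0.0418), with no count filter (0.0163), by limma-voom (0.0404), without BWF1 male 2 (log2 difference 1.11, 0.0131) and by the earlier edgeR method (0.0314). Within the ORIG libraries it was 0.02, from 1 male and 3 BALB/c libraries. For BWF1 females minus BALB/c females it was 0.49 (SE 0.28, edgeR adjusted p = 0.387), with -0.08 within ORIG, and between BWF1 females and males -0.34 (SE 0.27, edgeR adjusted p = 0.580). All RL libraries are BWF1, so within a tag the strains could be compared only in the ORIG libraries. With the tag as a term the difference from BALB/c females was 0.12 (SE 0.27) in BWF1 males and -0.18 (SE 0.27) in BWF1 females. What lies behind the tag difference was not tested.

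Klf9 encodes a Krüppel-like transcription factor that is a direct receptor target (ENSMUSG00000033863, chromosome 19, 23141226 to 23168134, plus strand). Its counts were 4, 1 and 2 in BWF1 females, 1, 3 and 38 in the BWF1 males and 9, 9 and 2 in BALB/c. Levels overlapped between all groups, at 4.85 ± 3.66, 4.32 ± 3.16 and 4.79 ± 2.45 CPM (SD, n = 3). The gene fell below the count filter. Without that filter, over 15276 genes, its edgeR adjusted p was 0.863 for BWF1 females against males, 0.967 against BALB/c females and 0.924 for males against BALB/c females, so a difference was not detectable at this depth.

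**Figure D2:**
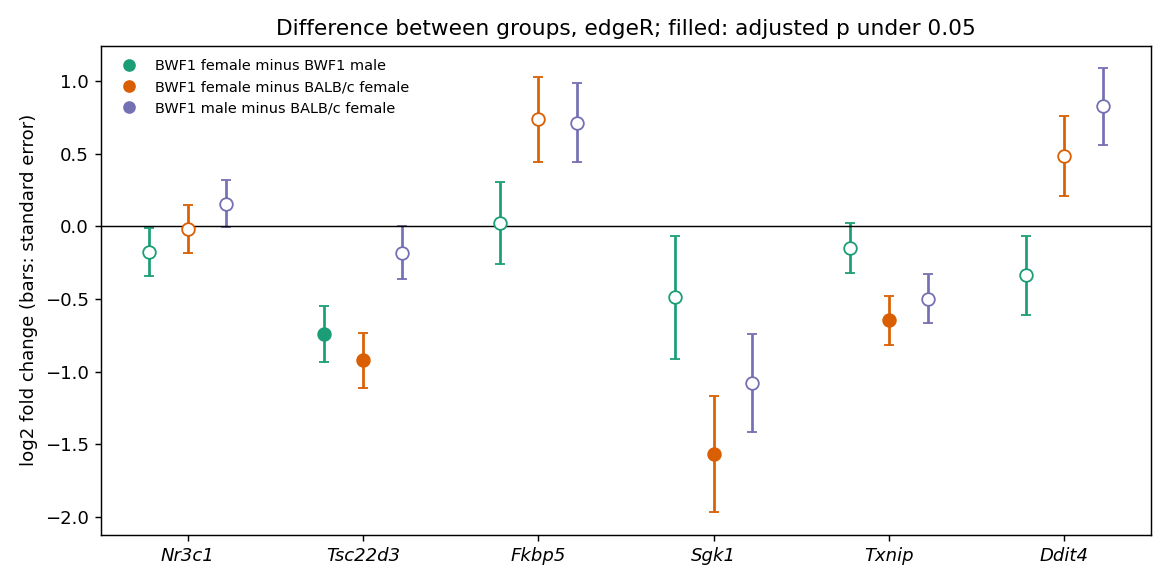
The log2 difference of each tested gene in the 3 comparisons, with its standard error; filled points have an edgeR adjusted p under 0.05. Tsc22d3 is filled in both comparisons of BWF1 females (-0.74 and -0.92), Sgk1 (-1.57) and Txnip (-0.65) against BALB/c females, and Nr3c1 has no filled point (-0.18, -0.02 and 0.16).

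Counted over the genes, 6 of 7 passed the filter on low counts. The genes were chosen with earlier results of these data known, so the shares below are description only. In BWF1 females against BWF1 males 1 of the 6 was called, in the lower direction, where 2.19% of all tested genes were called in either direction and 1.23% as lower. Levels of the groups were fully apart for 1 of the 6, against 18.7% of all tested genes. Against BALB/c females 3 of the 6 were called, all lower in BWF1 females, beside 3.82% of all genes called and 2.03% as lower. Of the 3, Sgk1 was below the count filter in a fit of only the BWF1 groups. Levels did not overlap for 4 of the 6, beside 21.2%. In BWF1 males against BALB/c females edgeR called 0 of the 6, beside 3.52%. At an unadjusted p under 0.05 were 4 of the 6, beside 1260 of all 7719 tested genes. DESeq2 called 0 of the 6, beside 196 of all genes, and limma-voom 3, beside 650. There 2 of the 6 did not overlap, beside 23.5% of all genes. The median log2 difference of the 6 was -0.26, -0.33 and -0.01 in the 3 comparisons, and that of all tested genes was 0.00064, -0.0024 and -0.0028. The comparisons share groups: the low Tsc22d3 libraries of BWF1 females enter 2 of them, and the high Sgk1 and Txnip libraries of BALB/c females enter 2.

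Per kilobase of exon, which allows levels of different genes to be compared, Txnip was the highest of the 7 in each group, at 57.1 ± 14.1, 63.2 ± 7.55 and 89.5 ± 9.99 CPM per kb (SD, n = 3) in female BWF1, male BWF1 and BALB/c mice. In both BWF1 groups the order then ran Ddit4, Tsc22d3, Nr3c1, Fkbp5, Sgk1, Klf9. Tsc22d3, at 14.2 ± 3.46 CPM per kb in BWF1 females, was near Nr3c1 at 12.004 ± 0.818, within the spread. In BWF1 males it was at 24.0 ± 0.608 against 13.5 ± 1.23 for Nr3c1, and the spreads did not meet. BALB/c females had Tsc22d3 (27.2 ± 4.96) before Ddit4 (18.5 ± 2.58), and Sgk1 (5.46 ± 1.13) before Fkbp5 (1.77 ± 0.467). In BWF1 females Fkbp5 (2.97 ± 0.149) stood before Sgk1 (1.81 ± 1.22), a pair within its spread.

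Reads of each target per 100 Nr3c1 reads of the same library gave a ratio that needs no scaling between libraries; this ratio was chosen after the levels were seen. Tsc22d3 stood at 67.7 ± 19.96 reads per 100 Nr3c1 reads (SD, n = 3) in BWF1 females, 101 ± 11.2 in the BWF1 males and 126 ± 23.7 in BALB/c females. The BWF1 females again did not overlap either group (exact permutation p = 0.1 for each, two-sided, the smallest that 3 against 3 can give). Sgk1 was at 9.52 ± 6.28, 11.3 ± 2.41 and 28.7 ± 6.38, and Txnip at 193 ± 41.2, 190 ± 23.3 and 299 ± 26.7. For both, BALB/c females were above all BWF1 libraries. Fkbp5, at 30.6 ± 3.49, 26.2 ± 4.63 and 17.9 ± 4.37, was higher in BWF1 females relative to BALB/c without overlap. Ddit4 overlapped in each comparison.

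**Figure D3:**
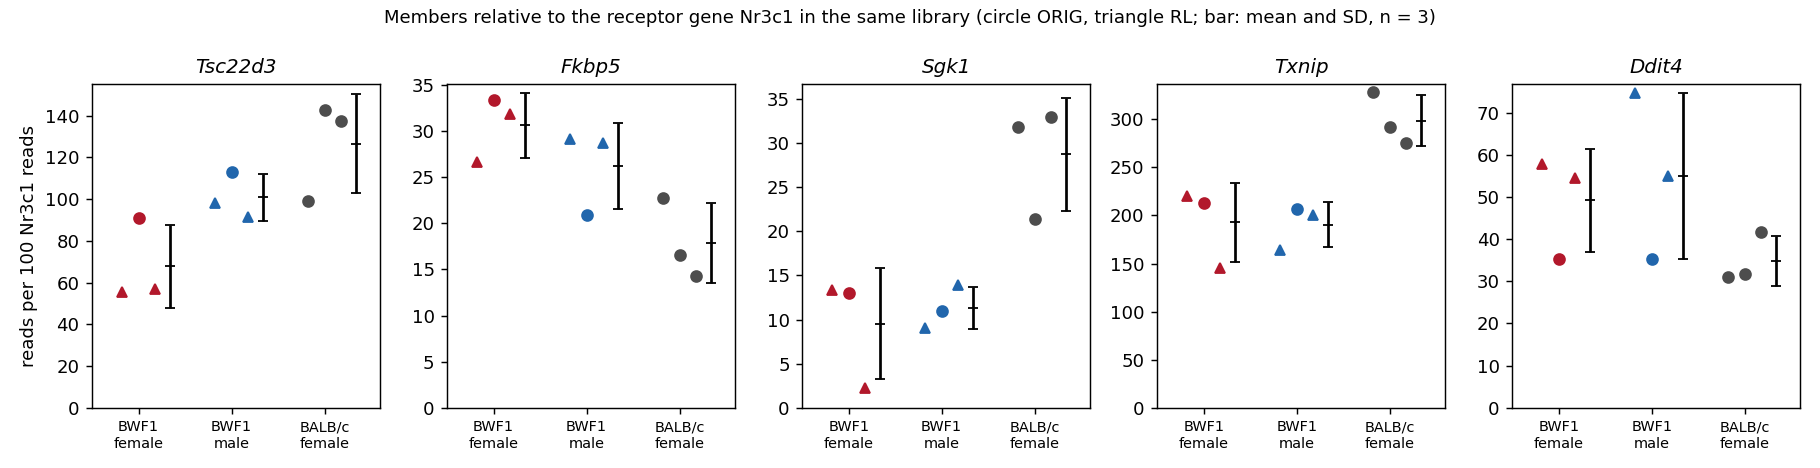
Reads of 5 target genes per 100 reads of the receptor gene Nr3c1 in the same library, with mean and SD (n = 3); circles are ORIG and triangles RL libraries. Tsc22d3 is lowest in the BWF1 females (67.7 on average), and Sgk1 and Txnip are highest in BALB/c females (28.7 and 299).

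Beyond these genes, further lists were read, also chosen with earlier results of these data known. Of 32 other genes known to be induced by glucocorticoids, 21 were tested. In BWF1 females against BALB/c females 0 were higher and 6 lower, with a median log2 difference of -0.36. Over all tested genes 2.03% were called lower in that comparison. Dusp1, the phosphatase that switches off MAP kinases, was at 48.3 ± 14.4 against 162 ± 33.1 CPM (SD, n = 3; log2 difference -1.74, SE 0.22, edgeR adjusted p = 2.33e-05). Zfp36, which speeds the decay of cytokine mRNA, was at 114 ± 26.2 against 289 ± 46.9 CPM (-1.34, SE 0.19, edgeR adjusted p = 6.14e-05). The others were Rhob (-1.45), Per1 (-0.97), Irs2 (-0.88) and Nfkbia (-0.62), the inhibitor of NF-kappaB. Leaving out BWF1 female 2 or BALB/c female 2 left 3 lower, as did library size scaling, and leaving out BWF1 female 3 or BALB/c female 3, or DESeq2, left 4.

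In BWF1 females against BWF1 males, 0 of the 21 were higher and 1 lower, Il7r, the interleukin-7 receptor chain of lymphocytes, at 33.3 ± 6.15 against 68.6 ± 4.47 CPM (log2 difference -1.04, SE 0.24, edgeR adjusted p = 0.0158). It was not called with library size scaling or without BWF1 female 2, BWF1 male 2 or BWF1 male 3. BWF1 males against BALB/c females had 2 higher and 4 lower. Cd163, a scavenger receptor of macrophages, was at 16.0 ± 3.23 against 3.43 ± 1.53 CPM (2.17, SE 0.45, edgeR adjusted p = 0.00445), and Il7r was higher by 0.84 (SE 0.22, edgeR adjusted p = 0.0302). Rhob (-1.38), Dusp1 (-1.18), Per1 (-0.996) and Zfp36 (-0.96) were lower. Without BWF1 male 3, and with the file tag as a term, 0 were higher, and 1 was without BWF1 male 2, BALB/c female 2 or BALB/c female 3. The median was -0.13, and in BWF1 females against males -0.20. Over all tested genes 3.52% were called in the former comparison and 2.19% in the latter. The remaining 11 had too few counts, among them Zbtb16, Mt1, Mt2 and Cebpd.

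A list of genes that glucocorticoids are known to repress was read in the same way. Of 15 listed, 6 were tested. In BWF1 females against BALB/c females 5 of the 6 were lower and 0 higher, with a median log2 difference of -1.80. Over all tested genes 2.03% were called lower there. In a fit of only the BWF1 groups 2 of the listed genes passed the count filter. The rest of the 6 entered through BALB/c libraries, where they were high, which favours a lower value in BWF1. Without the filter 5 of 13 were lower, with a median of -1.71. The inflammatory cytokine gene Il1b was at 17.0 ± 9.17 against 89.2 ± 6.60 CPM (SD, n = 3; -2.35, SE 0.34, edgeR adjusted p = 9.38e-05) and the chemokine gene Ccl5 at 17.1 ± 2.53 against 66.4 ± 23.7 CPM (-1.93, SE 0.28, edgeR adjusted p = 8.53e-05). Ptgs2 (-1.67), Tnf (-1.57) and Ccl3 (-2.61) were the others. Ccl3 was near the floor in BWF1 females 1 to 3, at 4.41, 0 and 2.05 CPM. In these libraries 3 counts equalled 6.62, 4.84 and 6.16 CPM. Tnf stood at that level in BWF1 females 2 and 3, at 4.84 and 6.16 CPM, and above it in BWF1 female 1. Ptgs2 was just above it in BWF1 females 1 to 3, at 8.82, 6.45 and 8.21 CPM. The lower values of Tnf, Ptgs2 and Ccl3 therefore rested on few reads in BWF1 females. By DESeq2 and by limma-voom 2 were lower, and without BWF1 female 2 also 2, while 3 were lower without BWF1 female 3 or any 1 BALB/c library and with the file tag as a term. Against BWF1 males Ccl5 (-1.94, SE 0.28, edgeR adjusted p = 0.000174) and Il1b (-1.47, SE 0.34, edgeR adjusted p = 0.0219) were lower in BWF1 females, a median of -0.99. There 1 was lower by DESeq2, by limma-voom and without BWF1 female 1, BWF1 female 3 or BWF1 male 1. In BWF1 males against BALB/c females Tnf (-1.48) and Ptgs2 (-1.29) were lower, a median of -1.005, while DESeq2 called 0 and limma-voom 5 of the 6 lower. Library size scaling, removing Lars2 and no count filter each gave 3, as did leaving out BWF1 male 1. Without BALB/c female 2, 0 were lower, and 1 was without BWF1 male 2, BWF1 male 3 or BALB/c female 1. Over all tested genes 1.23% were called lower in BWF1 females against males, and 143 of 7719 in males against BALB/c females.

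Some of the chaperone genes whose products hold the receptor ready for hormone were higher in BWF1 males. Of 20 chaperone and coregulator genes listed, 19 were tested. In BWF1 males against BALB/c females 4 were higher and 0 lower: the co-chaperones Stip1 (141 ± 40.8 against 54.7 ± 3.10 CPM, SD, n = 3; log2 difference 1.37, SE 0.20, edgeR adjusted p = 9.99e-05) and Fkbp4 (135 ± 32.9 against 54.7 ± 10.8 CPM; 1.30, SE 0.19, edgeR adjusted p = 0.000117), with Ptges3 (0.95) and Hsp90ab1 (0.68). Fkbp4 competes with the Fkbp5 product for the receptor complex. The male libraries differed among themselves, with Stip1 at 164.8, 94.3 and 165.1 CPM and Fkbp4 at 162.8, 98.4 and 142.2 CPM, the lower value in both being the ORIG library. With the file tag as a term 2 were higher, as without BWF1 male 3, BALB/c female 2 or BALB/c female 3, and with library size scaling 0 were higher. The list's median was 0.10, and 129 of all 7719 tested genes were called higher in that comparison.

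BWF1 females had Stip1 (-1.08, SE 0.21, edgeR adjusted p = 0.00488), Hspa8 (-0.88, SE 0.17, edgeR adjusted p = 0.0055) and Hsp90ab1 (-0.62, SE 0.16, edgeR adjusted p = 0.0442) lower than BWF1 males, with 0 higher and a median of -0.18. Library size scaling, and leaving out BWF1 male 3, each left 0 lower, leaving out BWF1 male 2 gave 5, and 2 were lower without BWF1 female 1, 2 or 3, BWF1 male 1 or BALB/c female 2 or 3. Against BALB/c females, Smarca4, the ATPase of the SWI/SNF remodelling complex, was higher in BWF1 females (183 ± 12.6 against 115 ± 2.07 CPM; 0.66, SE 0.16, edgeR adjusted p = 0.0162) and Hspa8 was lower (-0.79, SE 0.17, edgeR adjusted p = 0.00738). Neither was called with library size scaling. Smarca4 was not called with the file tag as a term or without any 1 BALB/c library, and Hspa8 was not called without BWF1 female 2. Of all tested genes 2.19% were called against BWF1 males and 3.82% against BALB/c females.

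**Figure D4:**
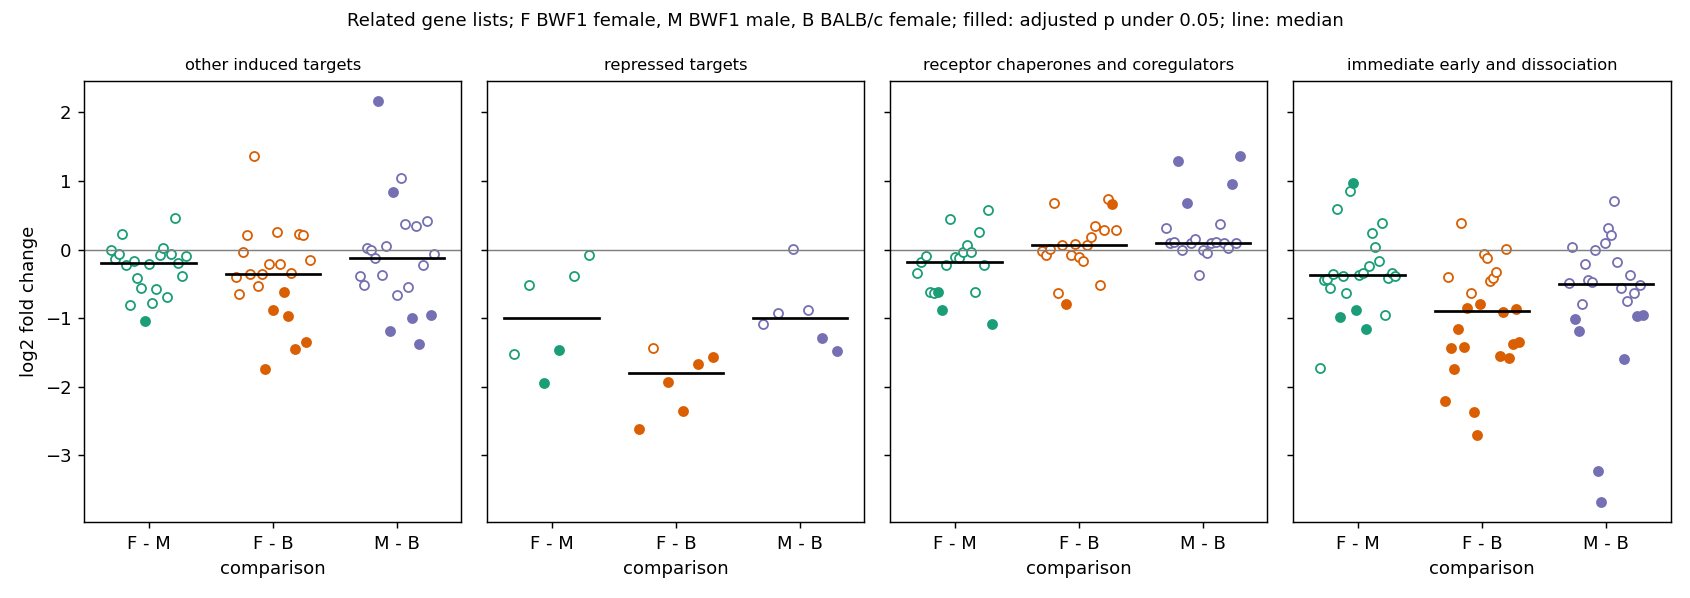
The log2 difference of each tested gene of 4 lists in the 3 comparisons (F, BWF1 females; M, BWF1 males; B, BALB/c females), with filled points at an edgeR adjusted p under 0.05 and a line at the median. The repressed targets have medians of -0.99, -1.80 and -1.005 and the immediate early and dissociation genes -0.38, -0.89 and -0.50, all below 0.

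The hormone itself is made active, inactivated and exported by other proteins. Of 8 such genes, 3 were tested and edgeR called 0 in each comparison, with 0, 0 and 1 at an unadjusted p under 0.05. Over all 7719 tested genes 1266, 1308 and 1260 were at that level. DESeq2 called 0 of the 3 and limma-voom 1, in BWF1 males against BALB/c females. The lowest p was that of Hsd11b1, the enzyme that regenerates active corticosterone, in BWF1 males against BALB/c females (1.05, SE 0.39, edgeR adjusted p = 0.155). Of 25 genes whose products work with these proteins, such as Txn1, Mtor and Foxo1, 24 were tested and edgeR called 0, with 1, 2 and 3 at an unadjusted p under 0.05; DESeq2 called 0 and limma-voom 1, again in males against BALB/c females. The lowest p-values were those of Txn2 for BWF1 females against males (-0.48, edgeR adjusted p = 0.250), Txn1 against BALB/c females (0.82, edgeR adjusted p = 0.166) and Atf4 for males against BALB/c females (-0.49, edgeR adjusted p = 0.143).

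Circadian genes were listed because the hormone follows the day. Of 16, 9 were tested. Over all tested genes 3.82% were called in BWF1 females against BALB/c females and 3.52% in BWF1 males against BALB/c females. Per1, a clock gene and receptor target, was lower than in BALB/c females in BWF1 females (39.3 ± 10.1 against 76.7 ± 14.4 CPM; -0.97, SE 0.22, edgeR adjusted p = 0.00907) and in BWF1 males (38.3 ± 2.86 CPM; -0.996, SE 0.21, edgeR adjusted p = 0.00536). Both Per1 calls were absent without BALB/c female 2, and that in BWF1 females also without BWF1 female 2 and with library size scaling. Bhlhe41 was higher in BWF1 males (1.48, SE 0.40, edgeR adjusted p = 0.0374), a call absent by DESeq2, by limma-voom, by the earlier edgeR method, with library size scaling, with the file tag as a term, with the replicate block and without BWF1 male 1, BWF1 male 2 or any 1 BALB/c library. BWF1 females against males had 0 calls, with 0 at an unadjusted p under 0.05, and 0 by DESeq2 and by limma-voom.

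Other signals moved with the same groups and are given here as values. Of 25 immediate early and heat shock genes that rise when tissue is dissociated, 24 were tested, and 15 were lower and 0 higher in BWF1 females relative to BALB/c. In BWF1 males 7 were lower and 0 higher than in BALB/c females, and 3 were lower and 1 higher in the females than the males of BWF1. Over all tested genes 3.82%, 3.52% and 2.19% were called in these comparisons, in that order. Leaving out BWF1 male 3 left 1 lower and 0 higher in that last comparison, 0 were higher without BWF1 female 1, BWF1 female 2 or BWF1 male 2, and 2 were higher without BWF1 male 1 or BALB/c female 1. Across the settings 11 to 16 were lower in BWF1 females relative to BALB/c. In BWF1 males 6 to 12 were lower and 0 to 1 higher than in BALB/c females. The summed level of the listed genes was 1862 to 2125 CPM in BWF1 females, 2176 to 3022 in the BWF1 males and 3371 to 5252 in BALB/c, without overlap between groups. Abundant genes weigh most in this sum. In BALB/c females 1 to 3 Hspa1a was at 222, 434 and 365 CPM and Hspa1b at 351, 841 and 694 CPM. In BWF1 males they were at 56.9, 28.7 and 28.1 CPM and at 68.6, 42.0 and 39.6 CPM. Hsph1 was at 290, 86.1 and 221 CPM in the males, against 116, 133 and 113 CPM in BALB/c. Dusp1 and Zfp36 stand in this list and among the induced targets. Hspa8 and Hsp90aa1 stand in it and among the receptor chaperones, so the Hspa8 calls above are not separate from these. The gene with the pattern most like Tsc22d3 over the 9 libraries, of 4742 compared, was Fos (Pearson r = 0.962 on log2 CPM), an immediate early gene, at 67.8 ± 25.2, 135 ± 16.9 and 183 ± 37.5 CPM (SD, n = 3) in the 3 groups.

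Cell type markers moved too. Natural killer cell markers summed to 88.2 to 101 CPM in BWF1 females, 275 to 288 in the BWF1 males and 111 to 149 in BALB/c, and T cell markers to 417 to 567, 745 to 819 and 513 to 679. B cell markers summed to 2164 to 2407, 2297 to 2890 and 3203 to 3247 CPM. The 12 macrophage and gate markers summed to 227 to 243, 488 to 726 and 356 to 418 CPM, and plasma cell markers to 563 to 831, 1255 to 2071 and 681 to 824. BWF1 females were therefore lowest, without overlap with either group, in natural killer, macrophage and immediate early sums, as they were in Tsc22d3. Other sums went the other way or followed strain: platelet markers were highest in BWF1 females (67.8 to 75.0 CPM, against 51.0 to 62.8 and 47.6 to 55.2), proliferation genes were higher than in the males (448 to 706 against 213 to 324, with 365 to 568 in BALB/c), and stromal and endothelial markers were lower in both BWF1 groups (137 to 168 and 122 to 154) than in BALB/c (171 to 198). For each sum whose groups did not overlap the exact permutation p was 0.1, the smallest possible, and 0.17 after adjustment over 39 tests. Erythroid markers ran from 828 to 2396, 208 to 1349 and 1464 to 4359 CPM, with Hba-a2 at 0 in both BWF1 groups. Abundant genes weigh most in all these sums. Of the 6 plasma cell markers 1 was called lower in BWF1 females than in BWF1 males, beside 1.23% of all tested genes. Their median log2 difference was -0.18. Against BALB/c females 0 of the 6 were called, beside 3.82% of all tested genes, with a median of 0.64. The part of cell type makeup and of dissociation in the differences above was not tested.

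As a description of shared patterns over the 9 libraries, which also share depth and composition, the nearest genes to the others were as follows. Sgk1 was most like Phyh (r = 0.961) and Txnip (r = 0.945). Txnip was most like Pdlim5 (r = 0.955) and Phyh (r = 0.947), so Phyh was near both genes that were high in BALB/c females. After Fos, Tsc22d3 was most like Rasa3 (r = 0.951). Fkbp5 was most like Top1 (r = 0.937) and Dnajc3 (r = 0.930), and Ddit4 most like Nolc1 (r = 0.945) and Uqcrq (r = 0.926). The flat pattern of Nr3c1 had the weakest neighbours, Gprasp1 (r = 0.897) and Derl1 (r = 0.889).

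**Figure D5:**
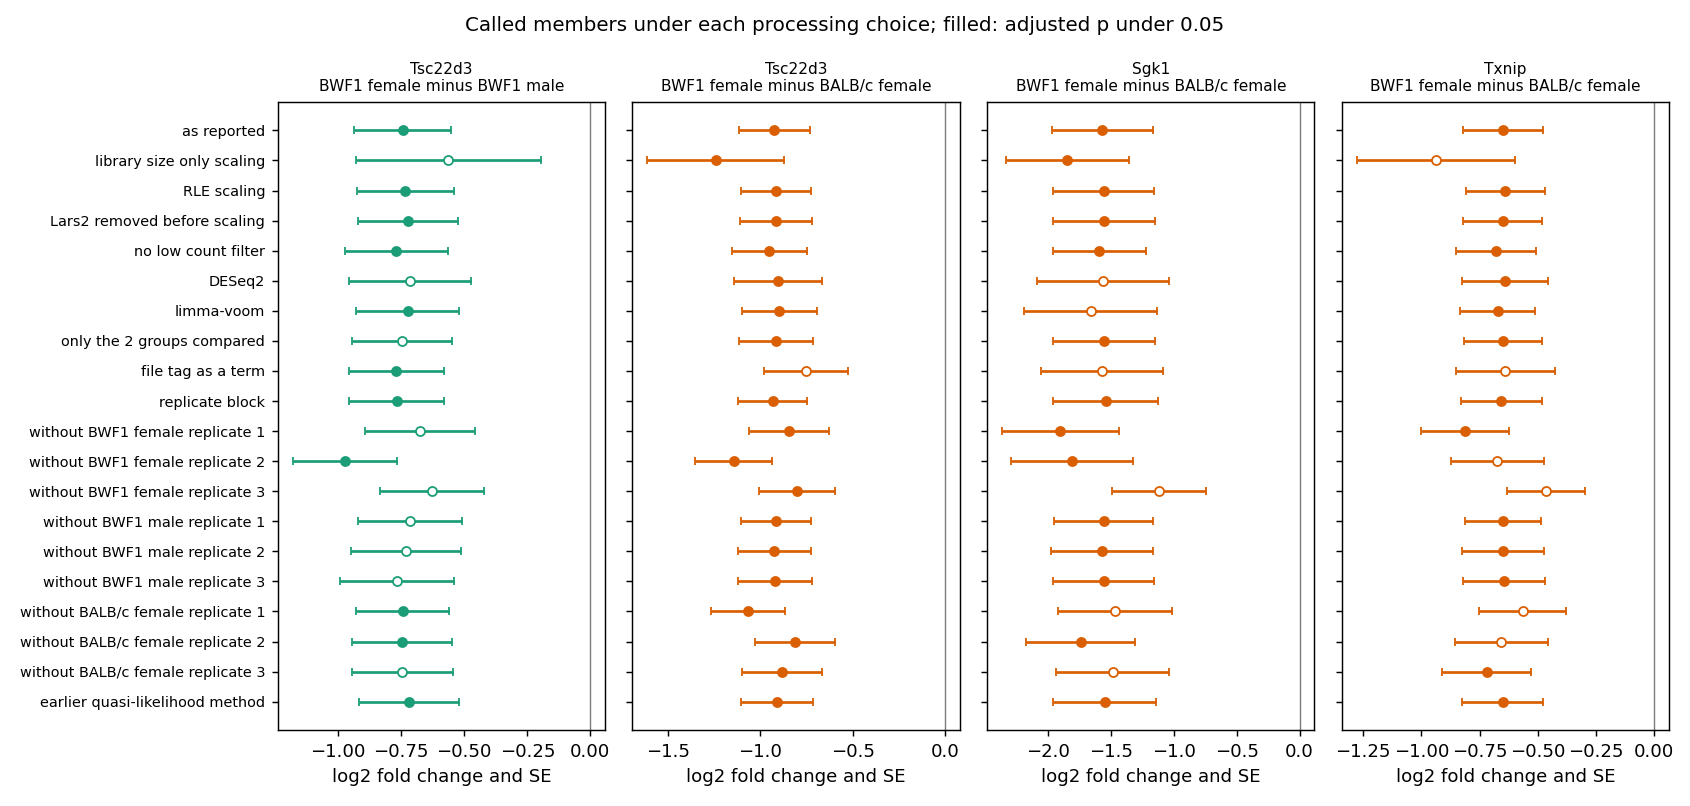
The log2 difference, with its standard error, of the 4 called values under each processing choice; filled points have an adjusted p under 0.05. All points lie below 0, Tsc22d3 against BALB/c females is filled in all but the fit with the file tag as a term, and the other 3 panels have open points in 6 to 9 of 19 alternatives.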

How the data were processed

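RNA was sequenced from 9 spleen libraries, 3 per group, after ribosomal RNA depletion; the labels do not say whether the kit marked strand. The deposited values are raw read counts per gene with the summary lines of HTSeq, per the file headers. The submitters' processing notes list the build mm10, STAR 2.6 and FastQC 0.10.1. The strand and annotation used in counting are not given in the sources used here, so reads of genes that overlap, on either strand, may be mixed. Only 1.29% to 2.82% of alignments fell in counted genes.

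Names, coordinates and exon lengths came from GENCODE M21, which matched 21939 of 21965 identifiers. The test was edgeR 4.0.16 in R 4.3.3 (quasi-likelihood F test, all 9 libraries in 1 fit, TMM factors 0.530 to 1.40, filterByExpr with a minimum count of 10, 7719 genes, Benjamini-Hochberg over all of them). The standard error is the log2 difference over the square root of F. DESeq2 1.42.0, limma 3.58.1, other scalings, no filter, the file tag as a term, the replicate block and leaving out each library were alternatives; the earlier edgeR quasi-likelihood method was added after seeing the data. The fit was also run on counts simulated from a mean profile shared by all libraries, with a fixed dispersion. These did not copy the differing Lars2 shares, so that run cannot show how the fit handles them. Promoter motifs came from RefSeq windows of 250 bases. The members and lists were chosen with earlier results of these data known. Genes named are all members, in each list and comparison the called genes of lowest p (or the lowest p where none was called) with others to complete a count, and per member the 2 genes of at least 20 CPM with the highest r (log2 CPM with a prior count of 2). Nothing states that each library is 1 animal, so p-values measure the spread between these samples. Chi-square per degree of freedom between replicates was 1.23 to 2.60, so no pair agreed within sampling noise, and each library was counted as 1 sample. Reads carry no molecular identifiers.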

Additional observations from a re-analysis of the deposited data

How the results depend on the processing

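Of 339 recomputed differences of single genes, 293 kept their direction and side of the threshold, 22 lost a call, 13 gained one and 11 changed sign; causes were not tested. Genes called between BWF1 females and males (169) became 59 with library size scaling, 304 with no count filter, 105 by DESeq2 and 98 with only the 2 groups, and 58 to 198 when leaving out each library (fewest without BWF1 male 3, then 101 without BWF1 male 2 and 108 without BWF1 female 3). Between BWF1 and BALB/c females (295) they became 130 with library size scaling, 169 by DESeq2 and 160 with the file tag as a term, and 184 to 370 when leaving out each library, with 184, 189 and 194 without BALB/c females 1, 2 and 3. Between BWF1 males and BALB/c females (272) they became 433 with Lars2 removed, 510 with no filter, 650 by limma-voom, 153 with the file tag and 484 by the earlier edgeR method, and 119 to 393 when leaving out each library (119 without BALB/c female 2, 150 without BWF1 male 3).

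Library size scaling shifted the median of all genes by 0.154, -0.287 and -0.441 and changed the split of higher to lower calls from 74 and 95 to 45 and 14, from 138 and 157 to 23 and 107, and from 129 and 143 to 26 and 248, in the order above. Of the 6 tested genes, 0 were called between BWF1 females and males with library size scaling, by DESeq2 and with only the 2 groups (0 to 1 leaving out a library). Against BALB/c females 0 were called with the file tag (1 to 3 leaving out a library, 1 without BWF1 female 3 or BALB/c female 1). For BWF1 males against BALB/c females 1 was called with library size scaling or only the 2 groups, 2 with Lars2 removed, no filter or the earlier method and 3 by limma-voom (0 to 1 leaving out a library).

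Signs changed for small differences. Fkbp5 between BWF1 females and males was -0.00020 with Lars2 removed, -0.018 with no filter, -0.024 by the earlier method, -0.0071 without BWF1 female 2 and -0.17 without BWF1 male 2 (-0.17 to 0.18 leaving out a library). Nr3c1 gave 0.011 and, for males against BALB/c females, -0.32 with library size scaling, and 0.024 for BWF1 against BALB/c females without BWF1 female 2 (-0.073 to 0.024 leaving out a library). With the file tag as a term Ddit4 in BWF1 against BALB/c females was -0.18 and Tsc22d3 in BWF1 males against BALB/c females 0.017, and Txnip between BWF1 females and males was 0.026 without BWF1 female 3 (-0.33 to 0.026 leaving out a library). The replicate numbers did not pair the samples (correlations of deviations -0.0912 to 0.0589). With the replicate block 118, 255 and 240 genes were called, and 1, 3 and 0 of the 6. Depth limits Klf9 and Sgk1 most.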
